A study of Mus musculus with 2 samples.

Results

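Scavenger receptors are surface and endosomal proteins with which macrophages and some endothelial cells take up modified lipoproteins, haemoglobin complexes, microbes and debris of dying cells. The genes described here are 10 genes of this kind, taken as all probes whose gene name in the scanner output was Msr1, Marco, Cd36, Cd163, Stab1, Stab2, Cd5l, Scarb1, Scarb2 or Cd68. They were represented by 15 of 39429 probes and by 10 of 30165 named genes. The study had 1 array of bone marrow mononuclear cells cultured with ninjin'yoeito (NYT), a herbal drug, and 1 array of such cells left untreated as the negative control. Both cultures were of C57/Bl6J mice aged 2 to 4 months, whose femurs were flushed in medium with 2% fetal bovine serum, and both were collected at day 11 and hybridised on the same slide. Dose, sex and number of animals were not given in the sources used here. With 1 array per group, no difference below has a replicate check and no p-value was computed.

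Msr1 and Marco are class A receptors, which bind polyanions and are trimers with collagen-like stems. Cd36, Scarb1 and Scarb2 form class B, whose members cross the membrane at both ends of the chain and carry fatty acids, lipoprotein cholesterol or lysosomal proteins. Stab1 and Stab2, the stabilins, are large endocytic receptors of sinusoidal endothelium and, for Stab1, of tissue macrophages. Cd163 takes up haemoglobin bound to haptoglobin, Cd5l is a secreted protein of tissue macrophages built of the same cysteine-rich domains, and Cd68 is a heavily glycosylated protein of late endosomes and lysosomes.

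The probes that the following results turn on are shown first, 5′ to 3′ as deposited in the scanner output, each 60 bases long. Msr1 probe 2 and Scarb1 probe 2 are shown because they are read beside another probe that differs in the annotated variants, Scarb2 because it is listed over a span wider than the probe, and Cd163 because it lies at the limit of detection. Coordinates are those of the deposited annotation on mouse build mm9, and no exon annotation of that build was used.
Msr1 probe 2, both transcript variants, chr8:40709296-40709355, minus strand: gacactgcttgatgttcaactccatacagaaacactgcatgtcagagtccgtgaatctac
Scarb1 probe 2, transcript variant 1 alone, chr5:125761540-125761599, minus strand: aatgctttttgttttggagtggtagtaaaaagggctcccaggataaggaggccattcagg
Scarb2, listed at chr5:92877611-92878944, a span of 1334 bases, minus strand: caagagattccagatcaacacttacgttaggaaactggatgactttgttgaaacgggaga
Cd163, the dimmest member, chr6:124270436-124270495, plus strand: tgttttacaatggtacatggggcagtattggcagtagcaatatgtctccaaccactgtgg

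Values are processed intensities in arbitrary units, averaged over spots where a probe was printed more than once. The 75th percentile intensity over all probes was 728 on the NYT array and 1475 on the control array. A scaled intensity is the intensity divided by that percentile, and each log2 difference is NYT minus control on the scaled values. Without scaling every log2 difference is 1.02 lower. A probe counted as measured when the scanner software called it well above background, which held for 57.7% of probes on the NYT array and 62.2% on the control array. The only errors are those of the spots. The software's own error model gave 0.20 to 0.21 (log2) for the difference of the 12 member probes measured on both arrays. For 228 probes printed 10 times, the median SD of a difference between single spots was 0.054 (log2), and its 95th percentile was 0.19. Neither error covers cultures, mice or hybridisations.

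Of the 10 genes, 9 were measured on both arrays. Stab1 and Stab2 were more than 10-fold lower in the NYT culture, and stayed at least 2-fold lower under every setting tried. Cd68 and Cd36 were just over 2-fold higher as scaled, but without scaling they stood at 0.16 and -0.01 (log2), and with spike-in scaling at 0.00 and -0.17. Msr1, Scarb1, Scarb2, Marco and Cd5l were less than 2-fold apart as scaled. The count was thus 2 higher and 2 lower of 9. Of all 16996 genes measured on both arrays, 11.2% passed 2-fold upward, 11.0% downward and 22.2% in either direction. Without scaling, 211 of the 16996 passed 2-fold upward and 6190 downward, and after loess 940 and 2365. At 3-fold as scaled, none of the 9 was higher and 2 were lower, beside 2.98% and 6.87% of all genes. The median log2 difference of the 9 was 0.23, beside 0.29 for all genes, with members on both sides of 0. The list's median fell further below that of all genes with normexp (0.05 beside 0.34), by the dimmest probe (-0.16 beside 0.29) and with dim probes kept (-0.07 beside 0.50). It also did so by the mean over probes (0.07 beside 0.29), with quantile normalization (0.08 beside 0.20) and in the authors' value table (0.08 beside 0.20).

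**Figure D1:**
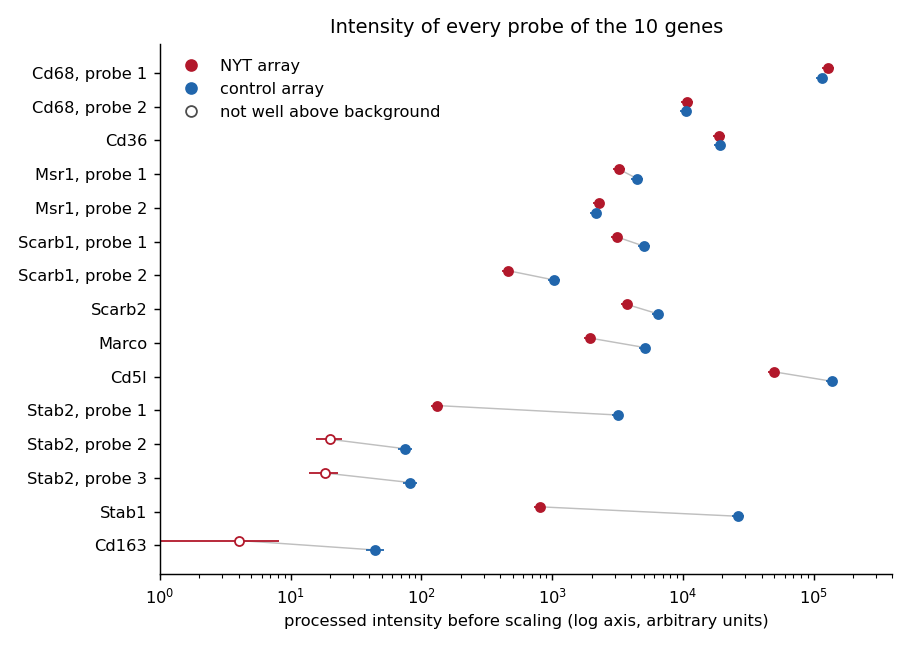
Processed intensity before scaling (log axis, arbitrary units, starting at 1) of each of the 15 probes, NYT array above control array, with bars for the software's error of 1 spot. Open points were not well above background, and the NYT bar of Cd163 is cut by the axis at 1. Stab1 and probe 1 of Stab2 show the widest gaps, with the NYT array lower, whereas the points of Cd36 and both Cd68 probes nearly coincide before scaling. Points of different probes are not comparable in level.

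The stabilins lay furthest from the other members. Stab1, which clears altered lipoproteins and matrix fragments, had an intensity of 804 on the NYT array against 26542 on the control array. Scaled, these were 1.104 and 17.99, a 16.3-fold lower value in the NYT culture (log2 -4.03). The NYT value was thus small beside the control value, although still well above background. The Stab1 probe lies at chr14:31952288-31952347, minus strand (mm9).

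Stab2, the main hyaluronan scavenger of sinusoidal endothelium, had 132 on the NYT array and 3187 on the control array by probe 1. The scaled intensities were 0.181 and 2.16, an 11.9-fold lower value in the NYT culture (log2 -3.57). Probe 1 lies at chr10:86303982-86304041 on the minus strand (mm9) and is the one annotated to the RefSeq transcript. Probes 2 and 3, annotated to other Ensembl transcripts at chr10:86381487-86381546 and chr10:86455257-86455316, were dim. They had 20.0 and 18.4 on the NYT array, not well above background, and 75.3 and 81.9 on the control array. Probe 2 was 1.86-fold lower in the NYT culture by its own signals (log2 -0.89, software error 0.37). Its NYT signal lay above the weakest one called well above background on that array, 19.2. Probe 3 lay under that signal, and with the dim side set to it the bound is at least 2.11-fold lower. All 3 probes were therefore lower on the NYT array, probe 2 by less than 2-fold, and only probe 1 was well above background on both arrays. With normexp background correction Stab2 stood at -3.01.

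Among all genes measured on both arrays, 1.19% had a lower difference than Stab1 and 1.88% a lower one than Stab2. Set against the median of all genes, Stab1 stood at -4.31 and Stab2 at -3.86 as scaled. Over the 7 other scaling and background settings, the authors' value table among them, Stab1 ranged from -4.41 to -4.31 and Stab2 from -3.86 to -3.35 relative to that median. The gap between the stabilins, 0.45 (log2), was less than 2 of the software's errors.

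Since stabilins are also endothelial genes, endothelial markers are given beside them. Of 14 endothelial markers, 6 were measured on both arrays, with 3 at least 2-fold lower, none higher and a median of -1.02. Vwf, the von Willebrand factor, stood at -3.17 by its brightest probe and -0.48 by another, Pecam1, a junction protein, at -1.88, and Egfl7 at -1.11. Another 5 were well above background on the control array alone, as were 1854 of all 30165 named genes. A bound of at least 2-fold held for 2 of the 5, beside 39.4% of the 1854. Of the 5 markers, Tie1, an endothelial kinase, was at least 11.7-fold lower in the NYT culture and Ptprb at least 4.38-fold, while the bounds of Cdh5, Tek and Emcn were under 2-fold. Neither array gave a signal well above background for Flt4, Lyve1 or Cldn5, and Kdr stood at 0.98 by its brightest probe and 0.04 by another. The summed scaled intensity of the 6 was 15.2 on the NYT array and 44.2 on the control array. Before scaling, Vwf by its brightest probe made up 52582 of 65206 on the control array and 2882 of 11048 on the NYT array. The fall of the sum thus follows this 1 gene. The part of the endothelial markers in the stabilin difference was not tested. In a bulk culture, fewer cells of a type and less RNA per cell cannot be told apart.

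Cd163, the haemoglobin receptor, was near the detection limit. Its intensity was 4.05 on the NYT array, not well above background, and 44.5 on the control array. The bound is at least 1.15-fold lower in the NYT culture, so no 2-fold difference could be shown at this signal. Of the 1854 genes well above background on the control array alone, 39.4% had a bound of at least 2-fold.

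Cd5l, whose protein circulates bound to IgM and inhibits fatty acid synthase in adipocytes, had an intensity of 49662 in the NYT culture and 137431 in the control. Its scaled intensities were 68.2 and 93.2, a log2 difference of -0.45. The value is thus less than 2-fold lower as scaled, and past 2-fold lower after loess (-1.05), without scaling (-1.47) and with spike-in scaling (-1.63). Relative to the median of all genes Cd5l lay between -1.17 and -0.74 over the scaling and background settings. Its probe lies at chr3:87174823-87174882, plus strand (mm9).

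The class A receptors stood apart from each other. Marco, which binds bacteria and inhaled particles, had 1942 on the NYT array and 5096 on the control array. Scaled, these were 2.67 and 3.45, a log2 difference of -0.37. Marco lay below 0 under all 11 alternatives and passed 2-fold without scaling (-1.39) and with spike-in scaling (-1.55) only. Relative to the median of all genes Marco lay between -0.68 and -0.62 over the scaling and background settings. Its probe is listed at chr1:122371115-122371134, minus strand (mm9), which covers 20 of its 60 bases.

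Msr1, the receptor for acetylated and oxidised lipoproteins, was measured by probes that differ in the transcripts they are annotated to. Probe 1, at chr8:40689158-40689217, is annotated to transcript variant 1, the long form, and had 3258 on the NYT array and 4478 on the control array. Its scaled intensities were 4.47 and 3.04, a log2 difference of 0.56. Probe 2, shown above, is annotated to both variants, with 2284 on the NYT array and 2162 on the control array. Scaled, these were 3.14 and 1.47, a 2.14-fold higher value in the NYT culture. Without scaling probe 2 stood at 0.08 (log2), beside a median of -0.73 for all genes. The probe of the long form alone was thus 0.54 (log2) below the probe of both forms, which is under 2 of the software's errors for this gap (0.29 each). Without scaling probe 1 stood at -0.46, so the sign of Msr1 depends on the scaling, while no constant scaling changes the gap between its probes. Relative to the median of all genes Msr1 by probe 1 lay between 0.16 and 0.29 over the scaling and background settings.

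Class B members are given next. Cd36, the fatty acid translocase and thrombospondin receptor, had 18982 on the NYT array and 19139 on the control array. The scaled intensities were 26.1 and 13.0, a 2.01-fold higher value in the NYT culture (log2 1.01). The raw signals were thus equal within the spot error, and the fold comes from the scaling. Quantile normalization gave 0.69, loess 0.57, and normexp 0.99, all short of 2-fold, and the sign turned without scaling and with spike-in scaling. Over the same settings Cd36 lay between 0.48 and 0.72 above the median of all genes. Its probe lies at chr5:17288600-17288659, minus strand (mm9).

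Cd36 is also carried by platelets and adipocytes, so their markers were read beside it. Of 11 megakaryocyte and platelet markers, 10 were at least 2-fold lower in the NYT culture, with a median of -4.25, and the summed scaled intensity was 76.6 on the NYT array and 336 on the control array. The 3 furthest apart were Selp (-4.68), Itga2b (-4.65) and Gp9 (-4.50), while Itgb3, the integrin subunit shared with macrophages and osteoclasts, stood at -0.02. Of 7 adipocyte markers, the defining Adipoq, Plin1, Cidec, Lep and Cfd had no signal well above background on the NYT or the control array. The other adipocyte markers, Fabp4 (1.50) and Pparg (0.46), are also macrophage genes. Cd36 did not share the low values of the platelet markers, and which cells its signal came from was not tested.

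Scarb1, the receptor for high density lipoprotein, had 3106 on the NYT array and 5064 on the control array by probe 1, at chr5:125757483-125757542. The scaled intensities were 4.26 and 3.43, a log2 difference of 0.31. Probe 2, annotated to transcript variant 1 alone, had 456 on the NYT array and 1035 on the control array, scaled 0.626 and 0.702, a log2 difference of -0.16. Probe 2 was 0.48 (log2) below probe 1, again under 2 of the software's errors. For Scarb1 the sign thus depends on the probe as well as on the scaling.

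Scarb2, an abundant protein of the lysosomal membrane, had 3708 on the NYT array and 6398 on the control array. Scaled, these were 5.09 and 4.34, a log2 difference of 0.23 that turned to -0.08 after loess, -0.79 without scaling and -0.95 with spike-in scaling. Relative to the median of all genes, over the scaling and background settings, Scarb1 by probe 1 lay between -0.04 and 0.04 and Scarb2 between -0.29 and -0.05. The mean over its probes put Scarb1 at 0.07 and the dimmest probe at -0.16, where the medians of all genes were 0.29 and 0.29.

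Cd68 had the highest difference of the members as scaled, whereas Cd36 was higher with quantile normalization, after loess and in the authors' value table. Probe 1, at chr11:69477775-69477834 on the minus strand (mm9), is annotated to an Ensembl transcript and to no RefSeq one. It had 129012 on the NYT array and 115391 on the control array. The scaled intensities were 177 and 78.2, a 2.26-fold higher value in the NYT culture (log2 1.18). Probe 2, at chr11:69478979-69479038 and annotated to a RefSeq transcript, had 10804 and 10468 on the NYT and control arrays. Scaled, these were 14.8 and 7.10, a log2 difference of 1.06. The probes of Cd68 thus gave the same picture within 0.12 (log2). The value was 0.62 with quantile normalization, 0.54 after loess and 0.00 with spike-in scaling, so Cd68 passed 2-fold under some scalings and not under others. Relative to the median of all genes Cd68 lay between 0.42 and 0.89 over the scaling and background settings.

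**Figure D2:**
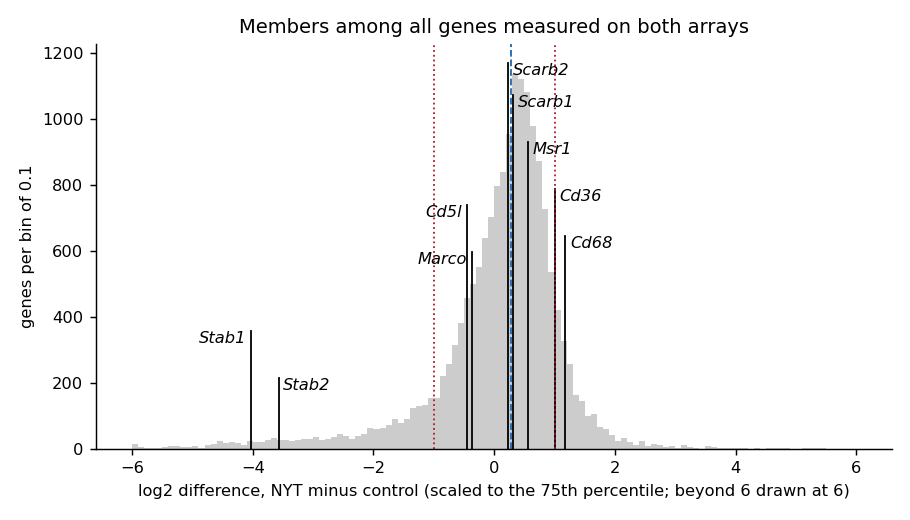
Log2 difference, NYT minus control, of the 9 members measured on both arrays (black lines, line height for legibility only) over the histogram of all 16996 measured genes in bins of 0.1. The dashed line is the median of all genes (0.29) and the dotted lines mark 2-fold. Stab1 and Stab2 sit in the low tail, and the other 7 lie between -0.45 and 1.18 as scaled; without scaling every value is 1.02 lower.

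The order of the differences was Stab1, Stab2, Cd5l, Marco, Scarb2, Scarb1, Msr1, Cd36 and Cd68, from low to high. Of the 8 steps between neighbours, 2 exceeded 2 of the software's errors, namely from Stab2 to Cd5l (3.12) and from Marco to Scarb2 (0.60). Over all 36 pairs of members, 29 did. A ratio between members within the arrays is free of any constant scaling, and shows unequal change only. Stab1 was 36.9-fold lower in the NYT culture relative to Cd68, 32.7-fold lower relative to Cd36 and 24.0-fold lower relative to Msr1. Cd5l was 3.09-fold lower and Marco 2.93-fold lower relative to Cd68.

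**Figure D3:**
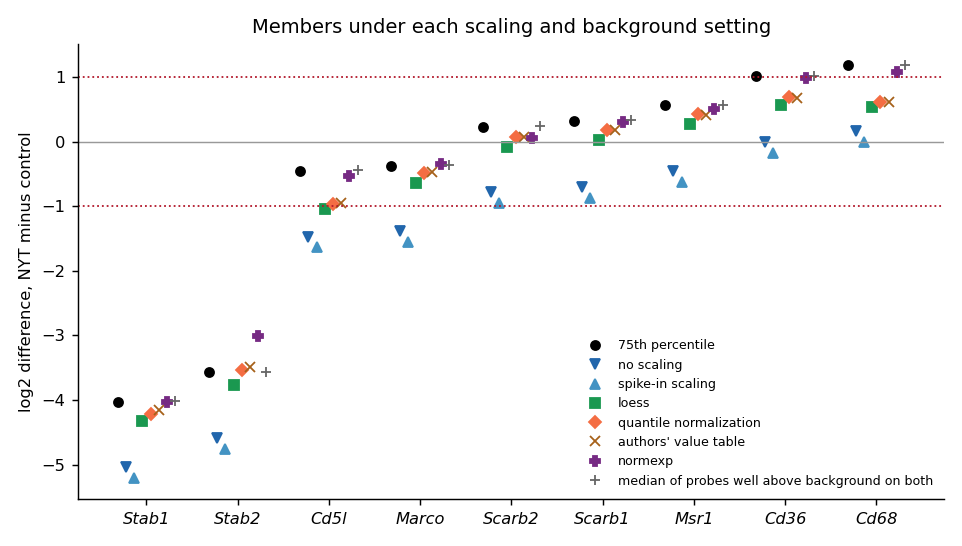
Log2 difference, NYT minus control, of each member under the 75th percentile scaling (black circles) and 7 other settings. Dotted lines mark 2-fold. Stab1 and Stab2 stay below -3 throughout, while Scarb2, Scarb1, Msr1 and Cd36 cross 0, and Cd68 touches it with spike-in scaling.

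The label of macrophage genes was read against macrophage markers, of which 21 of 24 were well above background on the NYT array and 23 of 24 on the control array. Of the 21 measured on both, 2 were past 2-fold higher (none without scaling) and 10 past 2-fold lower (15 without scaling, 13 after loess) in the NYT culture, with a median of -0.93. Siglec1, counted as lower by its brightest probe (-2.69), stood at 1.28 by another. C1qa (-5.21) and C1qb (-3.74), subunits of the complement protein C1q, and Cx3cr1 (-4.02), the fractalkine receptor, were lowest. The 2 higher were Gpnmb (1.65) and Trem2 (1.63), which without scaling are 1.02 lower. Vsig4 and Timd4, markers of resident macrophages, were well above background on the control array alone, with bounds of 15.2-fold and 2.45-fold for the lower NYT value, and Clec4f on neither. The summed scaled intensity of the 21 was 1247 on the NYT array and 995 on the control array. Unscaled, the order was reversed, with 908638 on the NYT array and 1467270 on the control array. Of the unscaled NYT sum, Gpnmb made up 244614 and Trem2 192292. Of 5 general leukocyte markers none was higher and 1, Coro1a (-1.15), was lower, with a median of 0.20. How far the macrophage markers account for the members' values was not tested.

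Other scavenger receptors, a list of 21 genes, were measured on both arrays for 11, of which 2 were at least 2-fold higher (none without scaling) and 3 lower (7 without scaling) in the NYT culture. Their median was -0.16, beside 0.29 for all genes. Mrc1, the mannose receptor, stood at -1.97, Clec4n, a fungal glycan receptor, at 1.59 and Havcr2, an inhibitory receptor that binds phosphatidylserine, at 1.38. Another 7 were well above background on the control array alone, as were 1854 of all 30165 named genes. A bound of at least 2-fold held for 4 of the 7, beside 39.4% of the 1854. Megf10, an engulfment receptor, was at least 10.6-fold lower in the NYT culture, Cd209a at least 5.69-fold, Olr1, a receptor for oxidised lipoprotein, at least 3.71-fold and Timd4 at least 2.45-fold. These low ones were dim genes, at 425 or less on the control array.

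A list of ligands of these receptors, together with proteins that bridge or attract phagocytes, gave the lowest median of the related lists. Of 11 measured, 6 were at least 2-fold lower (7 without scaling) and 3 higher (none without scaling), with a median of -2.16, or -1.05 with normexp. Col1a1, a collagen chain, stood at -5.33, Sparc, a matrix protein bound by Stab1, at -3.77 (-2.15 by another probe) and Hp, haptoglobin, at -2.91. The 3 higher were Mfge8 (1.64), Spp1 (1.48) and Gas6 (1.38), which bridge or attract phagocytes. Co-receptors and kinases of Cd36 had a median of 0.15 over 10 measured genes, 3 of them lower (4 without scaling) and none higher. Those lower as scaled were Itga6, an integrin chain (-1.99, or -0.83 by another probe), Tlr2 (-1.16) and the kinase Fyn (-1.15).

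Genes acting after uptake, in a lipid, a haem and a LAMP list, had medians above 0 as scaled and below 0 without scaling. Relative to the median of all genes these medians stayed higher over the scaling and background settings, by at least 0.17, 0.04 and 0.13. Of 15 lipid handling genes, 7 were at least 2-fold higher and 1 lower, with a scaled median of 0.89. Without scaling that median was -0.12, none was higher and 5 were lower. Nceh1, a cholesterol ester hydrolase, stood at 1.52, Fabp4, a fatty acid binding protein, at 1.50 and Dgat1, which makes triglycerides, at -1.81. Of 11 genes of haem and haemoglobin clearance, 3 were higher and 1 lower, with a scaled median of 0.69. Their unscaled median was -0.33, with none higher and 3 lower. Hmox1, haem oxygenase, stood at 1.22 and Hpx, a dim gene, at 1.11, beside Hp at -2.91. The LAMP family and partners of Scarb2 had 3 of 8 higher and none lower, among them Ctsd, a cathepsin (1.22), and Cd63, a tetraspanin (1.16). The scaled median was 0.87, the unscaled one -0.14, and none passed 2-fold unscaled. Of 17 transcription factors linked to these genes, 15 were under 2-fold as scaled, with Srebf1 at 1.05, Maf at -1.01 and Nr1h3, the liver X receptor alpha, at 0.93. Their scaled median was 0.30, and unscaled it was -0.72, with none higher and 6 lower. Unscaled, 211 of all 16996 genes were higher and 6190 lower, with a median of -0.73. The unscaled counts of each list are to be read beside these.

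**Figure D4:**
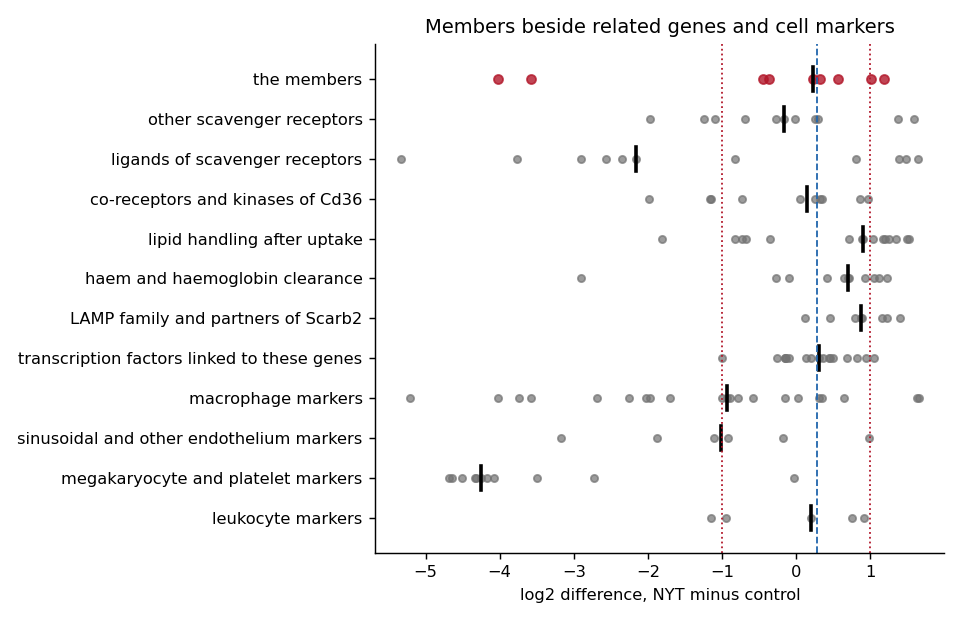
Log2 difference, NYT minus control, as scaled, of each gene measured on both arrays in the member list, 7 related lists and 4 marker lists. Points are genes, black bars list medians, the dashed line the median of all genes (0.29) and dotted lines 2-fold. The members span from -4.03 to 1.18, the platelet markers centre on -4.25, and the lipid, haem and LAMP lists lie above the dashed line as scaled; without scaling every point is 1.02 lower and those 3 medians fall below 0.

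Promoter windows were available for 8 of the 10 members, from 250 bases before to 50 after the start, in RefSeq on GRCm38.p6. Those of the members furthest apart are shown, 5′ to 3′ on the strand of the gene, for the 250 bases before the start. Capitals mark matches to the motifs searched on both strands: the E-box CACGTG, its extended form TCACGTG, which overlaps it, the ETS-type letters AGGAAGT, the letters TGCTGAC of Maf-type elements, the letters TGACTCA of AP-1 elements and the GC box GGGCGG.
Stab1, chr14:31168642-31168891, minus strand: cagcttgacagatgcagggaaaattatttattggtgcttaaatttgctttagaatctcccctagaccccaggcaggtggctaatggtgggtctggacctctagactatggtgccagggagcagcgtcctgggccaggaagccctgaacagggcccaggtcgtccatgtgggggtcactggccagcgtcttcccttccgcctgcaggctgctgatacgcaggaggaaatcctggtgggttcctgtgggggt
Stab2, chr10:87007943-87008192, minus strand: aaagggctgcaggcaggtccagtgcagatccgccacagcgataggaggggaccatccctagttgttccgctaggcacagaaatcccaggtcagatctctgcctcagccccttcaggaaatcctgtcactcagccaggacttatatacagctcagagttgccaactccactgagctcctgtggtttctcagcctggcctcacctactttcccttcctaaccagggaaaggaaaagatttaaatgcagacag
Cd36, chr5:17835897-17836146, minus strand: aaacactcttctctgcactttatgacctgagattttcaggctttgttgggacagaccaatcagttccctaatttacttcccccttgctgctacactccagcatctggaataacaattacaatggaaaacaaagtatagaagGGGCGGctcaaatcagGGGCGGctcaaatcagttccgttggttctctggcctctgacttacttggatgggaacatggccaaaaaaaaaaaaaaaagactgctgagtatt
Cd68, chr11:69666171-69666420, minus strand: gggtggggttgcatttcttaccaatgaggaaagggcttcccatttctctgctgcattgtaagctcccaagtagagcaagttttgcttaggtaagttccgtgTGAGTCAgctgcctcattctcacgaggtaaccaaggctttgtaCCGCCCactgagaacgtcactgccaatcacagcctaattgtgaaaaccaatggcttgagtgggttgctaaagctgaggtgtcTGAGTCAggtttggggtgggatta

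In the Stab1 and Stab2 windows none of these letters was found. Cd36 held GGGCGG starting at positions -109 and -93 from the start, and Cd68 held TGACTCA on the reverse strand at -149 and -24 and GGGCGG at -106. Over the 8 members, GGGCGG was found in 3 (Cd36, Scarb2 and Cd68) and TGACTCA in 1, while 35.7% and 5.20% of all 32851 windows held them. The other motifs were in none of the 8. Of all windows 7.15% held the E-box, 3.77% its extended form, 9.35% the ETS-type letters and 4.67% the Maf-type letters. A match is a run of letters, and binding was not measured here.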

How the data were processed

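Both arrays were hybridised in 1 colour. The scanner intensity of each spot is deposited, and its software was Agilent Feature Extraction, 10.7.1.1 in the file headers and 9.5.1.1 in the submitters' processing notes. Per the file headers, intensities were detrended within each array, background correction was off and surrogate values replaced those near background. Flags (0 or 1) for outliers, saturation and background were deposited by the authors too, as was a value table of linear intensity. Its columns had the same median, 72.1, and 39073 of 39429 sorted values were equal within a relative 1e-06, so it was quantile normalized between arrays, not centred. Its other steps are not settled.

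Outlier spots (165 on the NYT array, 258 on the control array) were dropped, and no spot was saturated. Spots of 1 probe were averaged as log2 values, then scaled to the 75th percentile of each array. Names came from RefSeq accessions (26761 probes), symbols (3814), synonyms (639) or the deposited name (8215). Where several probes of a gene were well above background on both arrays, the brightest stood for it. All 10 members are named, and of each other list the 3 genes with the largest difference, plus those that break down a count. A gene that this rule took is not reported here. Members and lists were chosen with earlier results of these data known. Labels and design text name different RNA kits. Counting was tested on simulated data. R 4.3.3 with limma 3.58.1 gave the loess, quantile and normexp values among 12 alternatives. Having 1 array per group limits the precision.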

Additional observations from a re-analysis of the deposited data

How the results depend on the processing

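No paired analysis was possible because a single array stood on each side, which also left nothing to leave out in turn. Stab1 and Stab2 were at least 2-fold lower under all 11 alternatives that kept the 2-fold threshold, ranging from -5.21 to -4.01 and from -4.75 to -3.01, and so past 3-fold too. Stab1 has 1 probe, and only probe 1 of Stab2 was well above background on both arrays. The mean over probes and the dimmest probe could therefore not move them, and the filter settings kept the same probes. These alternatives returned -4.03 and -3.57, and Stab2 probe 2 (-0.89) entered none. The number of members at least 2-fold higher was 0 under quantile normalization, loess, spike-in scaling, no scaling, the authors' value table and the 3-fold threshold, 1 with normexp (offset 50) and 3 by the dimmest probe. The number lower was 4 both with spike-in scaling and unscaled, and 3 after loess and when dim probes were kept. The members' median was 0.0762 with quantile normalization, -0.787 unscaled, -0.0785 after loess, -0.948 with spike-in scaling, 0.0522 with normexp, 0.0766 in the authors' value table, -0.0711 when dim probes were kept, 0.0745 as the mean over probes and -0.164 by the dimmest probe. Cd36 turned to -0.0118 unscaled and -0.172 with spike-in scaling. The median of all genes was 0.20 with quantile normalization, -0.73 unscaled, -0.89 with spike-in scaling, -0.02 after loess, 0.34 with normexp, 0.50 when dim probes were kept and 0.29 by the dimmest probe. Over all genes, 211 were higher and 6190 lower unscaled, 166 and 7485 with spike-in scaling, 940 and 2365 after loess, 4750 and 3414 when dim probes were kept, 3572 and 2737 with another detection flag, and 507 and 1167 at 3-fold. Constant scalings move each value alike, and filters and thresholds change which genes enter. Otherwise the cause was not tested. Signal over background limits Cd163 and Stab2 probes 2 and 3.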

Other observations

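Further genes with scavenger receptor cysteine-rich or related names were looked up after their values were seen. Fcrls, a receptor-like gene of resident macrophages and microglia, had an intensity of 77.7 on the NYT array and 3530 on the control array, a log2 difference of -4.49. Cd163l1, a relative of Cd163, had 4.55 on the NYT array, not well above background, and 161 on the control array, at least 4.13-fold lower in the NYT culture. Ssc4d stood at 0.64.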
